A study of Mus musculus with 6 samples.

Results

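The Dlk1-Dio3 domain is a cluster of imprinted genes on mouse chromosome 12. The genes described here are the coding genes Dlk1, Rtl1 and Dio3 and the noncoding genes Meg3, Rian and Mirg. They were taken by symbol, as the named coding and noncoding genes of the domain, after GENCODE M21 symbols had been matched to the gene identifiers of a mouse liver count table, and they make up 6 of its 54446 genes. They were chosen with their levels at weeks 0, 2 and 7 known, so those levels are given as a description without a test.

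The study followed mouse liver cells over a treatment named in its title as MET/CAT and SB transposase, with libraries at week 0, week 2 and week 7. A transposase inserts a suitably flanked piece of DNA into chromosomes. The labels expand neither MET nor CAT, and they state neither the promoter of the inserted DNA, nor the cells that took it up, nor age, sex or pooling. Poly-A RNA was sequenced from paired ends in 2 libraries per week.

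The groups are named by week, and the labels do not say whether the week 0 livers had been treated, so week 0 is the first time given and not a known untreated control. No untreated liver of the later weeks was analysed here, so treatment, age and all else that goes with the week cannot be told apart. All groups share a background given as a mix of FVB/N and a C57BL line. The number after C57BL/ is 6 in the first week 0 library and another in each of the others, so the exact background is unsure. Nothing states that the libraries of a week came from separate animals, and p-values therefore measure only the spread between these libraries, which may be technical.

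Genomic imprinting is expression from only the allele inherited from one parent. In this domain the coding genes Dlk1, Rtl1 and Dio3 are expressed from the paternal chromosome, while Meg3, Rian and Mirg are long noncoding RNAs expressed from the maternal chromosome that also carry many microRNAs and small nucleolar RNAs. Dlk1, a Notch-related transmembrane protein, is abundant in the hepatoblasts of fetal liver and is switched off in hepatocytes after birth. A differentially methylated region between Dlk1 and Meg3 and the Meg3 promoter itself control which allele is read.

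The stretches just before the starts of Dlk1 and Meg3 are shown because these genes lie next to each other, are read from opposite parental alleles and were both higher after week 0. Each holds the 250 bases before the first RefSeq start on GRCm38.p6, plus strand: chr12:109452573-109452822 for Dlk1 and chr12:109540746-109540995 for Meg3. Capitals mark motifs found by letter search on both strands.
Dlk1: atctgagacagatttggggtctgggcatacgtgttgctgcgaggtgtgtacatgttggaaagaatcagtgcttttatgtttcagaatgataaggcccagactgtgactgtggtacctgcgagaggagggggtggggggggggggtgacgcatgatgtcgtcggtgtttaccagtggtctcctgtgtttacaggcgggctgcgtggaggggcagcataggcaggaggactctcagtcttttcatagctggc
Meg3: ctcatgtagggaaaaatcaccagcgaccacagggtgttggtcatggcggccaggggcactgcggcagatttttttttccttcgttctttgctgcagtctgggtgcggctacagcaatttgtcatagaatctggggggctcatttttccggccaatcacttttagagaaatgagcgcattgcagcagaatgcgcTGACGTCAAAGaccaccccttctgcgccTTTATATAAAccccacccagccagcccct

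The search covered the TCF/LEF core CTTTGA, which reads TCAAAG on the other strand, the cAMP response element TGACGTCA, and TATAAA, the TATA box, which reads TTTATA on the other strand. In the Meg3 window TGACGTCA began 57 bases before the start. The TCF/LEF core, read from the other strand, began 52 bases before the start and overlapped the cAMP response element. TATA box letters began 29 and 25 bases before the start, on opposite strands and overlapping. The Dio3 window held the TCF/LEF core 38 bases and TATA box letters 31 bases before the start. None of these letters was in the Dlk1, Rian or Mirg window. The Mirg window lies before a RefSeq start but inside the Mirg gene of GENCODE M21, so it does not describe the start of that gene. Among the 32851 promoter windows of the same length, 13.8% held the TCF/LEF core, 1.55% the cAMP response element and 12.4% the TATA box. The Dlk1 window had 8 CpG dinucleotides and the Meg3 window 10, against a median of 6. The Rian window had 0 CpG, and the Dio3 window had 21 and a GC content of 69.6%, against a median GC content of 52.4%. These matches describe letters and not binding.

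Between the start of Dlk1 and the end of Dio3, RefSeq lists 58 microRNA hairpins and, counted apart, 113 named mature arms. Of the hairpins, 14 lie in Mirg, 3 in Rian and 6 on the strand opposite Rtl1, where they come from a maternal transcript. Another 33 lie between the annotated members. Arms of Mir1906-1 and Mir770 both lie in Meg3, but only 1 hairpin was listed there, so the hairpin counts are not complete. The arms opposite Rtl1 are shown because they are complementary to the Rtl1 RNA. Capitals mark the seed, bases 2 to 8, which pairs with targets.
mmu-miR-431-5p: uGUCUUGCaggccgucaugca
mmu-miR-431-3p: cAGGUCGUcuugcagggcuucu
mmu-miR-433-5p: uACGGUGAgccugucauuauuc
mmu-miR-433-3p: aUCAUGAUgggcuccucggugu
mmu-miR-127-5p: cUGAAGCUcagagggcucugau
mmu-miR-127-3p: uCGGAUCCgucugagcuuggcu
mmu-miR-434-5p: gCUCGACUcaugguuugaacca
mmu-miR-434-3p: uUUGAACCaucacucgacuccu
mmu-miR-432: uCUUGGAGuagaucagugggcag
mmu-miR-136-5p: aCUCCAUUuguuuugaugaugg
mmu-miR-136-3p: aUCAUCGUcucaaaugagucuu

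Each of these 11 arms had a seed found in no other arm of the domain. Across the domain there were 104 distinct seeds, and 9 of them were shared by 2 arms each. The pairs of 2 of these shared seeds are shown. The first pair is from arms within Mirg, and the second from 1 arm in Mirg and 1 outside the annotated ends of the hosts.
mmu-miR-496a-5p: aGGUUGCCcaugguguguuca
mmu-miR-453: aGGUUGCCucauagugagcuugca
mmu-miR-410-5p: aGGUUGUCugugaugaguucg
mmu-miR-494-5p: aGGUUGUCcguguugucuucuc
The libraries were made from poly-A RNA, and mature microRNAs were not measured in them. The hosts Mirg and Rian and the domain's other genes were.

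Library totals ran from 49353453 to 58434358 deposited counts. Levels are given as CPM, deposited counts per 1e6 counts of a library after TMM scaling, as mean ± SD over the 2 libraries of a week. A read pair was taken to be worth about 4 deposited counts because low values in the deposited table fall mostly at steps of that size. A level under 3 read pairs (12 counts) per library, which is 0.245 CPM at week 0, 0.201 in week 2 libraries and 0.228 in those of week 7, was not told from 0. The 10 hepatocyte markers summed to between 92980 and 132400 CPM in every library. Xist had 10 and 15 counts at week 0, 13236 and 12804 in week 2 libraries and 0 and 0 in those of week 7, and the Y-linked Ddx3y had 0 counts in both week 2 libraries. By these genes the week 2 libraries came from females and the others from males, so each comparison with week 2 differs in sex as well as time. Week 7 against week 0 is within male-typed libraries. Comparisons that share a week share its libraries and are not independent.

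**Figure D1:**
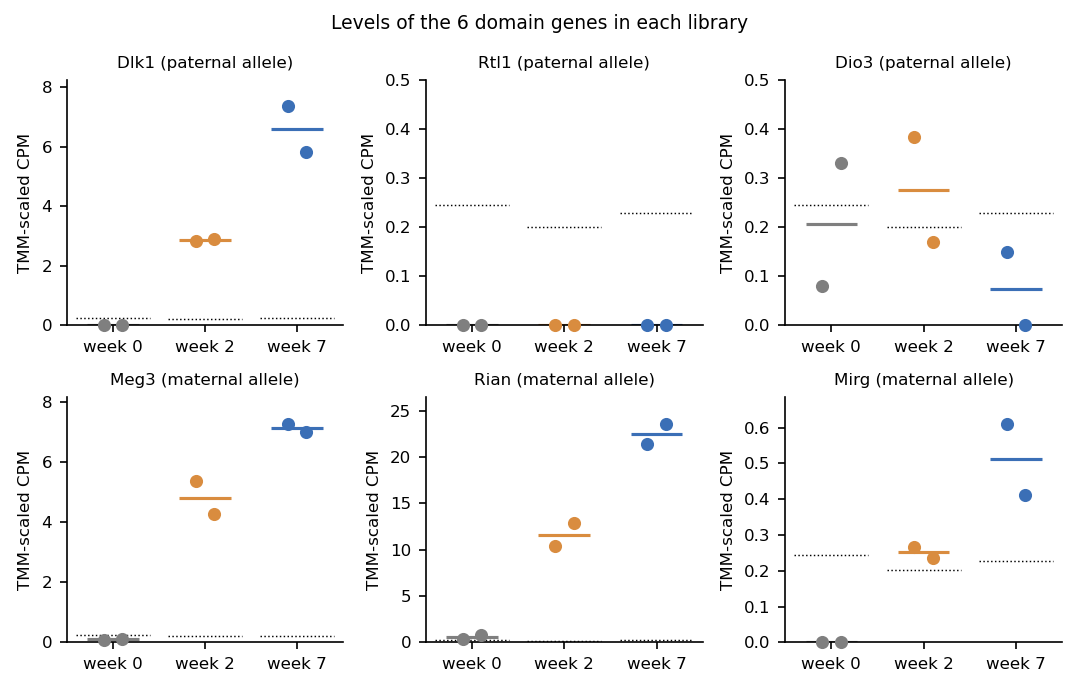
TMM-scaled CPM (linear axes, different in each panel) of the 6 domain genes in the 2 libraries of weeks 0, 2 and 7. Points are libraries, short lines are means of 2, and dotted lines mark the level of 3 read pairs. Dlk1, Meg3 and Rian lie near 0 at week 0 and reach means of 6.58, 7.15 and 22.5 CPM at week 7, while Rtl1 is at 0 throughout and Dio3 lies near the dotted lines.

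Transcripts of Dlk1, Meg3 and Rian were at or near 0 at week 0, were present at week 2 and were higher again at week 7. Mirg was listed at 0 at week 0 and was low at both later weeks. Rtl1 was listed at 0 in every library, and Dio3 stayed near the limit of counting. For Dlk1, Meg3, Rian and Mirg, both week 7 libraries lay above both week 0 libraries, as they did for 28.2% of the 15368 genes tested. For these 4 genes, both week 2 libraries also lay above both week 0 libraries (31.4% of all tested genes) and both week 7 libraries above both week 2 libraries (30.3%). Dio3 lay lower in both week 7 libraries than in both week 2 libraries (30.8%). Nothing is read from these counts, since the levels chose the members. Of the 6 genes, 5 passed the filter on low counts, and Rtl1 did not.

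Dlk1 (ENSMUSG00000040856) is the paternally expressed coding gene at the left end of the domain. It had deposited counts of 0 and 0 at week 0, 169 and 172 in week 2 libraries and 397 and 297 in those of week 7. In CPM these were 0 and 0 at week 0, 2.818 and 2.903 in week 2 libraries and 7.35 and 5.81 in those of week 7. The 3 weeks did not overlap, and the gene was undetected only at week 0. The mean was 6.58 ± 1.09 CPM at week 7 and 2.86 ± 0.0601 CPM at week 2 (SD, n = 2 each). Against the week 0 floor, Dlk1 was at least 26.9-fold higher at week 7 and at least 11.7-fold higher at week 2. Week 7 was 2.30-fold above week 2, and the ratio of the summed counts was 2.31 with a 95% interval of 1.77 to 3.03. That interval is an exact Clopper-Pearson interval on read pairs and, like every interval and floor here, covers counting error only, since PCR copies of a molecule were not removed by molecular identifiers. In bulk tissue, more cells with a transcript and more transcript per cell cannot be told apart.

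Rtl1 (ENSMUSG00000085925), a coding gene derived from a retrotransposon and needed in placenta, had 0 counts in all 6 libraries. Exact Poisson intervals on read pairs put the highest level that 0 counts allow between 0.246 and 0.306 CPM per library. The kit does not mark strand, so reads from the maternal transcript opposite Rtl1 could not have been separated from it.

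Dio3 (ENSMUSG00000075707), at the right end, encodes the deiodinase that inactivates thyroid hormone and is highly expressed in fetal tissues. It had counts of 4 and 16 at week 0, 23 and 10 in week 2 libraries and 8 and 0 in those of week 7. The means were 0.206 ± 0.178 CPM at week 0, 0.276 ± 0.152 in week 2 libraries and 0.0741 ± 0.105 in those of week 7 (SD, n = 2 each). Week 7 and week 0 libraries overlapped, as did week 2 and week 0 libraries, and both week 7 libraries lay under both week 2 libraries. The week 7 and week 0 means are both under their floors, so no fold is given. The ratio of summed counts was 0.275 for week 7 against week 2, with an interval of 0.0286 to 1.36, and 1.36 for week 2 against week 0, with an interval of 0.396 to 5.25. Both intervals include no difference. At the same depth Dlk1 had between 169 and 397 counts in each week 2 and week 7 library.

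Meg3 (ENSMUSG00000021268) is the maternal long noncoding RNA whose promoter carries one of the domain's methylation imprints. It had counts of 4 and 6 at week 0, 322 and 254 in week 2 libraries and 394 and 358 in those of week 7. The levels were 0.0801 and 0.124 CPM at week 0, 5.37 and 4.29 in week 2 libraries and 7.30 and 7.00 in those of week 7. Both later weeks stood clear of week 0, where the counts amount to 2.5 read pairs over both libraries. Means were 0.102 ± 0.0313 CPM at week 0, 4.83 ± 0.765 in week 2 libraries and 7.15 ± 0.210 in those of week 7 (SD, n = 2 each). Because week 0 lies under the floor and rests on so few reads, its ratios are wide: the summed counts gave 70.2 for week 7 against week 0, with an interval of 21.6 to 426, and 47.4 for week 2 against week 0, with an interval of 14.5 to 288. Week 7 was 1.48-fold above week 2, with an interval of 1.19 to 1.85.

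Rian (ENSMUSG00000097451), the maternal host of small nucleolar RNAs and some of the microRNAs, had the most counts of the 6 genes in every library. Its counts were 21 and 39 at week 0, 624 and 763 in week 2 libraries and 1156 and 1208 in those of week 7. It was thus the only one of the 6 above the floor in every library, week 0 included. The levels were 0.421 and 0.809 CPM at week 0, 10.4 and 12.9 in week 2 libraries and 21.4 and 23.6 in those of week 7. Means were 0.615 ± 0.274 CPM at week 0, 11.6 ± 1.75 in week 2 libraries and 22.5 ± 1.57 in those of week 7 (SD, n = 2 each). The weeks did not overlap. The ratio of means was 36.6 for week 7 against week 0 and 18.9 for week 2 against week 0. The intervals on the summed counts ran from 22.1 to 66.2 and from 11.4 to 34.4 for these 2 comparisons. Week 7 was 1.93-fold above week 2, with an interval of 1.69 to 2.21.

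Mirg (ENSMUSG00000097391), the maternal host of 14 of the microRNA hairpins, had counts of 0 and 0 at week 0, 16 and 14 in week 2 libraries and 33 and 21 in those of week 7. The means were 0.511 ± 0.142 CPM at week 7 and 0.252 ± 0.0216 at week 2 (SD, n = 2 each). Mirg was at least 2.09-fold higher at week 7 than at week 0. At week 2 it lay just above its floor, which allows a bound of only 1.03-fold against week 0. Week 7 was 2.03-fold above week 2, but the interval on the summed counts, 0.779 to 5.81, includes no difference.

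Per kilobase of annotated exon, the order of mean levels at week 7 was Rian at 1.24 CPM, Dlk1 at 1.16, Meg3 at 0.395, Mirg at 0.0701 and Dio3 at 0.0365. In the single week 7 libraries Dlk1 had 1.30 and 1.03 CPM per kilobase and Rian 1.17 and 1.296, so these neighbours overlapped. Meg3 lay apart from both its neighbours, and Mirg and Dio3 overlapped. At week 2 the order was Rian at 0.639 CPM per kilobase, Dlk1 at 0.506, Meg3 at 0.267, Dio3 at 0.136 and Mirg at 0.0345. No neighbours in this order overlapped at that week. At week 0 the few reads of Dio3, a short transcript, came to 0.101 CPM per kilobase, against 0.0337 for Rian and 0.00565 for Meg3. The exon lengths join all annotated transcripts, 18234 bases for Rian, 18089 for Meg3, 7292 for Mirg, 5657 for Dlk1 and 2030 for Dio3, so genes with long alternative exons read low.

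Summed over the 6 genes, the domain took 0.581 and 1.265 CPM at week 0, 19.24 and 20.48 in week 2 libraries and 36.83 and 36.85 in those of week 7. The later libraries of a week were close to each other in this sum. Rian supplied 72.4% and 63.9% of the domain's counts at week 0, 54.1% and 62.9% in week 2 libraries and 58.1% and 64.1% in those of week 7, and the week 0 counts are few. At weeks 2 and 7, Meg3 and Dlk1 supplied most of the rest.

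Ratios within a library do not depend on scaling and set the paternal Dlk1 beside the maternal RNAs. The count of Dlk1 per count of Meg3 was 1.01 and 0.830 in the week 7 libraries and 0.525 and 0.677 in the week 2 libraries, with no overlap. Per count of Rian, Dlk1 stood at 0.343 and 0.246 at week 7 and 0.271 and 0.225 at week 2, and these overlapped. Rian to Meg3 was 2.93 and 3.37 at week 7 and 1.938 and 3.004 at week 2, which also overlapped. So did Mirg to Rian, at 0.0286 and 0.0174 at week 7 and 0.0256 and 0.0184 at week 2. Mirg to Meg3, where Mirg rests on few reads, was 0.0838 and 0.0587 at week 7 and 0.0497 and 0.0551 at week 2, with no overlap. With 2 libraries a week and members chosen on these levels, no test of these ratios was made.

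**Figure D2:**
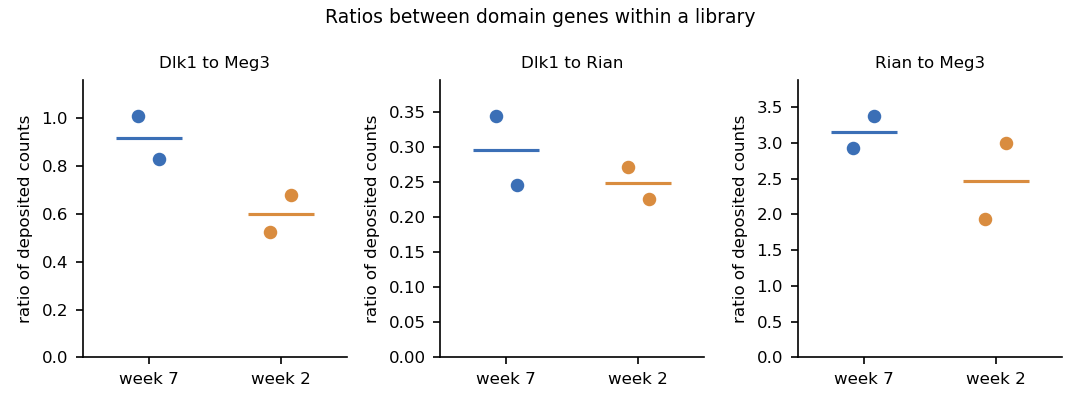
Ratios of deposited counts between domain genes within each library, at week 7 and week 2; points are libraries, lines are means of 2, and axes start at 0. Dlk1 to Meg3 is 1.01 and 0.830 at week 7, above 0.525 and 0.677 at week 2, while Dlk1 to Rian and Rian to Meg3 overlap between weeks.

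The annotation lists 118 genes between the start of Dlk1 and the end of Dio3. Of the 112 others, 94 had 0 counts in all 6 libraries. That included most of the 67 microRNA genes, of which 10 had any count and none more than 3 in a library, and the 23 small nucleolar RNA genes, of which 1 had any count and no more than 1 in a library. Poly-A selection is not designed to retain small RNAs. Dio3os, the noncoding RNA that starts beside Dio3 and runs the other way, had counts of 18 and 12 at week 0, 48 and 73 in week 2 libraries and 8 and 0 in those of week 7. Week 2 libraries were above and week 7 libraries below those of week 0. None of its comparisons passed the test (edgeR adjusted p = 0.354 for week 7 against week 0, 0.351 for week 2 against week 0 and 0.0744 for week 7 against week 2). Without strand, reads over Dio3 and Dio3os cannot be told apart where they overlap. The unnamed locus Gm34667 had counts of 184 and 114 at week 0, 164 and 192 in week 2 libraries and 161 and 133 in those of week 7, so it was expressed throughout and its weeks overlapped. These other genes were named after their counts were seen.

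Flanking genes show whether the higher levels extend beyond the domain. Of 15368 genes tested in all, 13.8% were called for week 7 against week 0 (edgeR quasi-likelihood test, Benjamini-Hochberg adjusted p under 0.05), 18.6% for week 2 against week 0 and 19.8% for week 7 against week 2. By direction, 7.58% were higher and 6.23% lower for week 7 against week 0. For week 2 against week 0, 9.81% were higher and 8.81% lower, and for week 7 against week 2, 10.1% were higher and 9.73% lower. These balances depend on scaling: with total counts only, 68.7% of the calls for week 2 against week 0 were higher, against 52.7% with TMM, and for week 7 against week 2 the share was 41.2%, against 50.8% with TMM. Of 18 flanking genes, 17 were tested and Begain, the nearest listed neighbour on the Dlk1 side, had 0 counts in every library. For week 7 against week 0, 1 flanking gene rose and 2 fell, with a median log2 fold change of -0.039, against 0.0016 over all genes. For week 2 against week 0, 0 rose and 3 fell, and for week 7 against week 2, 2 rose and 0 fell.

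Dync1h1, the heavy chain of cytoplasmic dynein, rose to 122 ± 1.82 CPM at week 7, against 86.7 ± 2.83 CPM at week 0 (SD, n = 2 each; log2 fold change 0.49, edgeR adjusted p = 0.000671, both libraries higher). Slc25a47, a mitochondrial carrier made mainly by liver, fell to 603 ± 22.6 CPM at week 7, against 780 ± 5.73 CPM at week 0 (log2 fold change -0.37, edgeR adjusted p = 0.0011, both libraries lower). Hsp90aa1, the inducible cytosolic chaperone HSP90, fell to 197 ± 36.3 CPM at week 7, against 385.7 ± 12.96 CPM at week 0 (log2 fold change -0.97, edgeR adjusted p = 0.0144, both libraries lower). Hsp90aa1 was no longer called when week 0 replicate 1 (adjusted p = 0.0777), week 0 replicate 2 (0.0874) or week 2 replicate 1 (0.0509) was left out. Wars, a tryptophan tRNA synthetase, fell at week 2 against week 0 (log2 fold change -0.45, edgeR adjusted p = 0.0349).

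The other flanking genes did not pass the test for week 7 against week 0. Yy1, which encodes a zinc finger regulator, had 89.7 ± 1.33 CPM at week 7, against 89.6 ± 3.12 CPM at week 0. Ppp2r5c, a phosphatase subunit and the nearest tested coding neighbour on the Dio3 side, had 50.9 ± 0.921 CPM at week 7, against 57.1 ± 5.69 CPM at week 0. Wdr25, the nearest tested neighbour on the Dlk1 side, had 2.43 ± 0.941 CPM at week 7, against 2.04 ± 0.743 CPM at week 0. On a log2(CPM + 0.5) scale, the 30 other tested genes from 1100 kb before to 1900 kb after the Dlk1 start lay between -0.97 and 0.55 for week 7 minus week 0. Gm3379, Gm34667 and Dio3os, which lie between Dlk1 and Dio3, are among these 30. On the same scale Dlk1 stood at 3.82, Meg3 at 3.67, Rian at 4.37, Mirg at 1.02 and Dio3 at -0.30. For week 2 minus week 0 the 30 other genes lay between -0.71 and 1.04, and Dlk1 stood at 2.75, Meg3 at 3.15, Rian at 3.45, Mirg at 0.59 and Dio3 at 0.14. The 3 genes with the highest values start within 151.1 kb of each other, and Dio3 starts 826.2 kb from Dlk1.

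**Figure D3:**
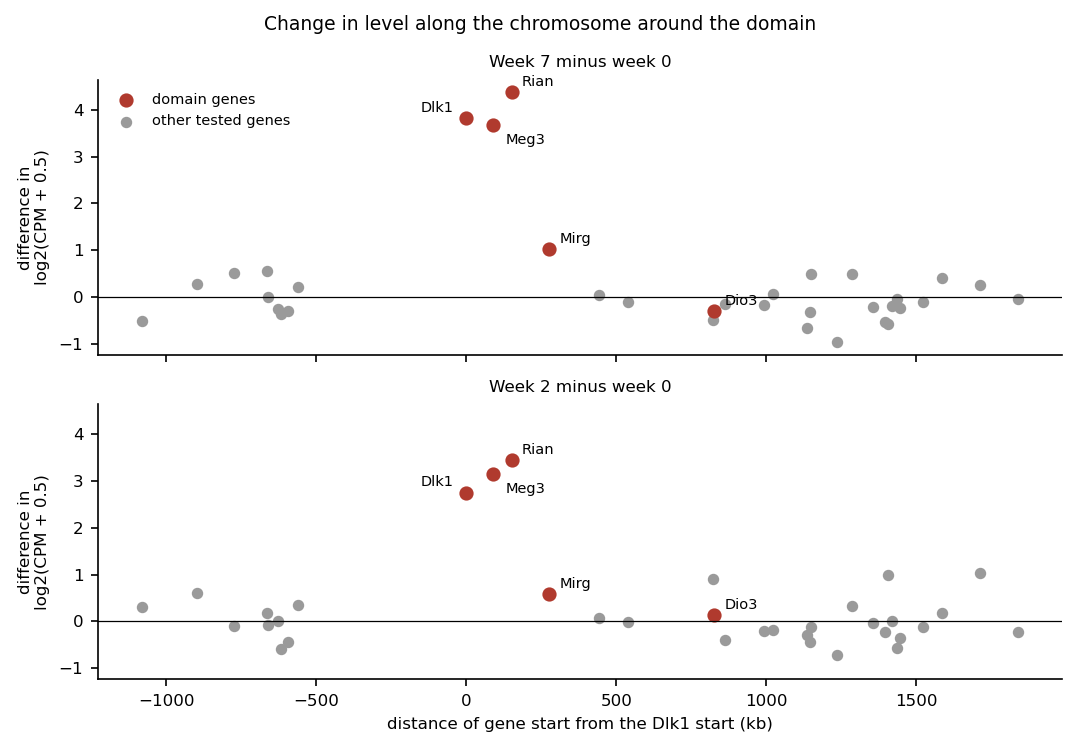
Differences in mean log2(CPM + 0.5) for week 7 minus week 0 (top) and week 2 minus week 0 (bottom), by distance of the gene start from the Dlk1 start in kb. Red points are the tested genes among the 6 described, and grey points the 30 other tested genes of the window. Of the grey points, Gm3379, Gm34667 and Dio3os lie between Dlk1 and Dio3. Dlk1, Meg3 and Rian stand at 3.67 or above in the top panel, while the grey points lie between -0.97 and 0.55.

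Genes that set or keep imprints were described from a list of DNA methylation, zinc finger and Polycomb factors, 17 of them tested. At week 7 against week 0, 2 rose and 1 fell, with a median log2 fold change of 0.12 against 0.0016 over all genes. Dnmt3a, a de novo DNA methyltransferase, rose to 21.7 ± 0.338 CPM at week 7, against 12.6 ± 0.760 CPM at week 0 (log2 fold change 0.78, edgeR adjusted p = 0.00216, both libraries higher). Tet3, which oxidises methylated cytosine, rose to 17.3 ± 1.58 CPM at week 7, against 11.3 ± 0.822 CPM at week 0 (log2 fold change 0.62, edgeR adjusted p = 0.016), a call that did not hold with week 0 replicate 1 (adjusted p = 0.0927) or week 7 replicate 2 (0.092) left out. Zfp445, a zinc finger protein that protects imprints from demethylation in the early embryo, was lower at both later weeks. Its levels were 98.2 ± 1.43 CPM at week 0, 33.6 ± 1.36 in week 2 libraries and 66.8 ± 1.86 in those of week 7. The log2 fold change was -0.56 at week 7 (edgeR adjusted p = 0.000895) and -1.55 at week 2 (edgeR adjusted p = 7.49e-07). At week 2 against week 0, 1 gene of the list rose and 1 fell, and at week 7 against week 2, 3 rose and 0 fell, which became 1 call without week 2 replicate 1, week 2 replicate 2 or week 7 replicate 2. DNA methylation itself was not measured.

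Dlk1 encodes a relative of the Notch ligands that lacks their receptor-binding domain. Of 26 tested Notch pathway genes, 1 rose and 3 fell at week 7 against week 0 (median log2 fold change -0.093). Hes1, a transcriptional target of Notch, fell to 5.36 ± 0.548 CPM at week 7, against 8.73 ± 0.0245 CPM at week 0 (log2 fold change -0.70, edgeR adjusted p = 0.0202). Lfng, a glycosyltransferase acting on Notch receptors, fell to 2.89 ± 0.266 CPM, against 5.14 ± 1.11 CPM at week 0 (edgeR adjusted p = 0.0418). Psen2, a catalytic subunit of gamma-secretase, fell to 68.4 ± 3.34 CPM, against 83.0 ± 0.350 CPM at week 0 (edgeR adjusted p = 0.0224). Maml1, a coactivator of Notch, rose to 20.3 ± 2.72 CPM, against 13.7 ± 1.43 CPM at week 0 (edgeR adjusted p = 0.0385). These calls depended on single libraries: the list had 0 calls without week 0 replicate 1, 1 without week 0 replicate 2, 2 without week 7 replicate 1 and 1 without week 7 replicate 2. At week 2 against week 0, 2 genes rose and 2 fell (2 calls without week 2 replicate 1), and at week 7 against week 2, 2 rose and 4 fell. Nrarp of the same list went the other way from Hes1 at week 7 against week 0 (log2 fold change 1.58, edgeR adjusted p = 0.0546, not called). Among the genes that rose at week 2 against week 0 was Nrarp (log2 fold change 2.28, edgeR adjusted p = 0.00887), while Hes1 was not called (0.24, 0.344).

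Dio3 belongs to the genes that handle thyroid hormone, and of 19 tested genes of that list 4 rose and 3 fell at week 7 against week 0 (median log2 fold change 0.14). Serpina7, the thyroxine-binding globulin of plasma, rose to 64.9 ± 5.25 CPM at week 7, against 26.9 ± 0.948 CPM at week 0 (log2 fold change 1.27, edgeR adjusted p = 4.06e-05). Slc16a10, a transporter of aromatic amino acids and thyroid hormone, rose to 142 ± 5.63 CPM, against 66.6 ± 3.92 CPM at week 0 (log2 fold change 1.09, edgeR adjusted p = 1.13e-05). Gpd2, a mitochondrial enzyme induced by thyroid hormone, rose with a log2 fold change of 0.81 (edgeR adjusted p = 0.000286). Thrsp and Me1, also induced by the hormone in liver, fell by 0.21 and 0.39 on the log2 scale (edgeR adjusted p = 0.00164 and 0.000593). The carrier Ttr fell by 0.27 (edgeR adjusted p = 0.000394). Dio1, Klf9 and Hr of the same list were not called (log2 fold changes 0.046, 0.058 and -0.064). Hr had a low level, so little can be read from it. Its log2 fold change of -0.71 at week 2 against week 0, not called, was only -0.15 in log2(CPM + 0.5). At week 2 against week 0, 3 rose and 5 fell, and at week 7 against week 2, 8 rose and 2 fell. The list therefore moved in both directions.

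Imprinted genes of other clusters give a comparison for the domain. Of 24 tested, 2 rose and 1 fell at week 7 against week 0 (median log2 fold change 0.027 against 0.0016 over all genes). H19, a maternally expressed noncoding RNA of fetal liver, rose to 2.54 and 1.94 CPM at week 7, against 0.0801 and 0.104 CPM at week 0 (edgeR adjusted p = 0.0011). The week 0 level is under the floor. Igf2, its paternally expressed neighbour, had counts of 0 and 0 at week 0, 2 and 2 in week 2 libraries and 0 and 7 in those of week 7. Both levels of Igf2 at week 7 were under the floor. Igf2r, the maternally expressed receptor that clears insulin-like growth factor 2, rose to 71.6 ± 1.19 CPM at week 7, against 33.8 ± 0.349 CPM at week 0 (log2 fold change 1.08, edgeR adjusted p = 8.55e-05). Dcn, imprinted in placenta and a matrix proteoglycan of stellate cells, fell to 55.9 ± 3.54 CPM, against 88.0 ± 3.30 CPM at week 0 (log2 fold change -0.65, edgeR adjusted p = 0.000356). At week 2 against week 0, 4 rose and 2 fell, and at week 7 against week 2, 3 rose and 1 fell.

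Most tested markers of fetal liver and liver tumours were called higher after week 0, on a list written with earlier results of these data known. Of 14 tested, 9 rose and 0 fell at week 7 against week 0 (median log2 fold change 3.35, or 2.29 as a difference in log2(CPM + 0.5), a scale less moved by genes at 0 in week 0), and 8 rose and 0 fell at week 2 against week 0, which became 5 without week 2 replicate 1. Over all genes tested, 7.58% rose at week 7 against week 0, with a median log2 fold change of 0.0016. Epcam, Sox9 and Cd24a of the list stood at -0.70, -0.26 and 0.08 for week 7 minus week 0 in log2(CPM + 0.5). Igf2bp1 and Lin28b were at 0 in all libraries. The summed level of the 18 listed genes was 15.87 and 15.61 CPM at week 0, 71.99 and 71.76 in week 2 libraries and 242.2 and 246.7 in those of week 7. Afp, the fetal serum protein alpha-fetoprotein, rose to 104 ± 1.13 CPM at week 7, against 0.418 ± 0.00428 CPM at week 0 (log2 fold change 7.95, edgeR adjusted p = 9.21e-09). Of 13 tested Wnt target genes, 12 rose and 0 fell at week 7 against week 0 (median log2 fold change 2.19 on both scales), and 10 rose and 1 fell at week 2 against week 0. Nkd1, a feedback inhibitor of Wnt signalling, rose to 53.2 ± 2.53 CPM at week 7, against 3.90 ± 0.640 CPM at week 0 (log2 fold change 3.77, edgeR adjusted p = 5.79e-07). Their part in the levels of the domain genes was not tested.

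Other liver cell types can express domain genes, Dlk1 and Meg3 in stellate cells among them. The 12 stellate cell and fibroblast markers, none at 0, summed to 316.5 and 303.5 CPM at week 0, 470.9 and 457.0 in week 2 libraries and 214.2 and 226.9 in those of week 7. Of these, 1 rose and 6 fell at week 7 against week 0, and 6 rose and 1 fell at week 2 against week 0. At week 7 against week 2, 0 rose and 9 fell. The 12 endothelial markers, none at 0, summed to 501.7 and 515.7 CPM at week 0, 624.0 and 607.6 in week 2 libraries and 454.6 and 477.6 in those of week 7. At week 7 against week 0 none of them rose and 2 fell, or 1 with any 1 library left out. The 8 Kupffer cell markers summed to 412.3 and 401.0 CPM at week 0, 554.3 and 556.8 in week 2 libraries and 299.4 and 291.8 in those of week 7. At week 7 against week 0, 7 of them fell, or 3 without week 0 replicate 1.

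Cholangiocyte markers, 7 in number and none at 0 in every library, summed to 30.01 and 31.78 CPM at week 0, 39.36 and 46.59 in week 2 libraries and 32.71 and 32.12 in those of week 7. Krt19, a keratin of bile duct cells, was the only 1 of the 6 tested that was called, rising to 4.597 ± 0.1094 CPM at week 7, against 0.513 ± 0.330 CPM at week 0 (log2 fold change 3.16, edgeR adjusted p = 0.0011). Erythroid markers summed to 540.6 and 558.8 CPM at week 0, 610.1 and 609.4 in week 2 libraries and 501.6 and 511.0 in those of week 7. None of the 7 tested was called at week 7 against week 0 by edgeR or DESeq2, and 4 had an unadjusted p under 0.05. Lymphocyte markers summed to between 4.242 and 10.24 CPM in all libraries. Of the 9 tested, 0 rose and 1, the B cell gene Ms4a1, fell at week 7 against week 0 (edgeR adjusted p = 0.0344). That call did not hold by limma voom, with a replicate block, with only the 4 libraries compared, or with week 0 replicate 1, a week 2 library or a week 7 library left out (adjusted p = 0.0612 to 0.142). Of the 10 hepatocyte markers, 2 rose and 6 fell at week 7 against week 0. At week 2 against week 0, 4 rose and 5 fell, and at week 7 against week 2, 5 rose and 3 fell. The part of these cells and of sex in the levels of the domain genes was not tested.

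**Figure D4:**
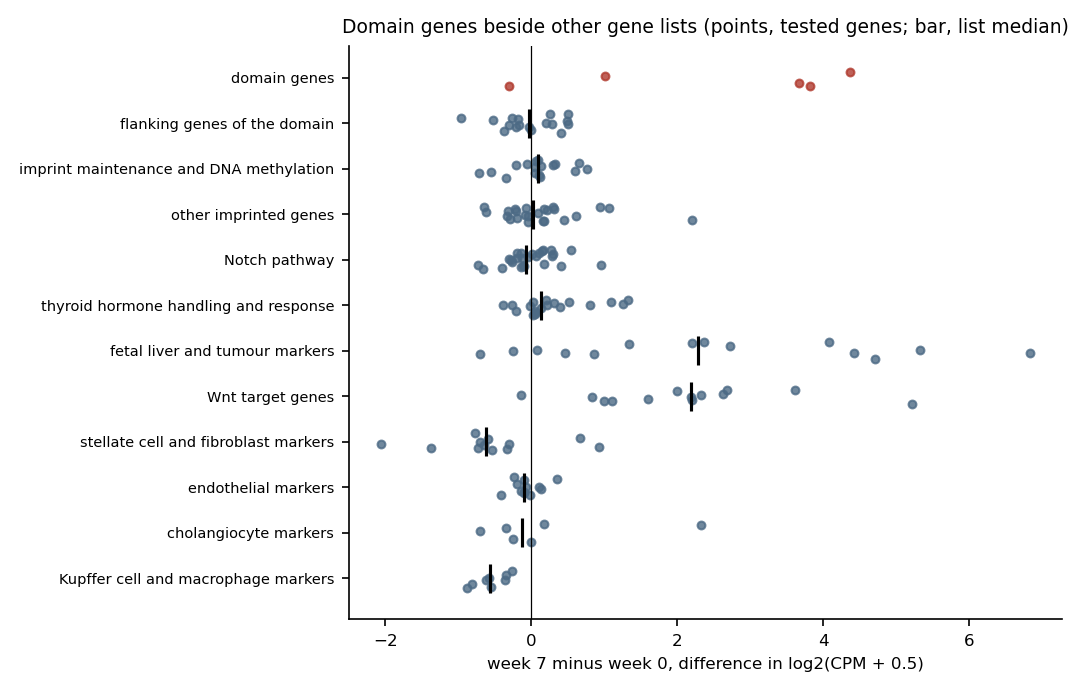
Differences in mean log2(CPM + 0.5), week 7 minus week 0, for the 5 tested domain genes (red) and the tested genes of 11 other lists (blue); bars are list medians on this scale, drawn for the other lists. Dlk1, Meg3 and Rian lie between 3.67 and 4.37, and the lists with medians above 2 are the fetal liver and tumour markers and the Wnt target genes.

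The genes nearest in profile were found by the root mean square difference of centred log2(CPM + 0.5) over the 6 libraries, among 13357 tested genes with a usual symbol. The libraries, their depth and their weeks are common to all these profiles, so this is a description. Nearest to Dlk1 were Elovl7, a fatty acid elongase (0.200), Pnliprp1, a lipase-related protein (0.250), Meg3 (0.259), Fbln1, the matrix protein fibulin 1 (0.262), and Nkd1 (0.268). Rian stood at rank 10. Nearest to Meg3 were Fbln1 (0.0721), Nkd1 (0.166), Elovl7 (0.176), Pnliprp1 (0.179) and Mogat2, an acyltransferase of fat synthesis (0.231), with Dlk1 at rank 6 and Rian at rank 8. Fbln1 had 0.100 and 0.104 CPM at week 0, 5.74 and 4.79 in week 2 libraries and 8.30 and 7.30 in those of week 7.

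Nearest to Rian were Ly6d, a membrane-anchored surface protein (0.186), Fbln1 (0.340), Meg3 (0.364), Mogat2 (0.365) and Dlk1 (0.373). Ly6d had 0.321 and 0.622 CPM at week 0, 12.7 and 12.1 in week 2 libraries and 24.6 and 25.3 in those of week 7. Dlk1, Meg3 and Rian were thus within the first 10 of each other's rankings. Mirg and Dio3 had lower levels and smaller differences on this scale. Among their nearest genes were Aebp1, Gulo, Arsg and Fgfrl1 for Mirg (0.0441 to 0.0975) and Nckap5l, Cenpw, Alox12, Chst13 and Palm for Dio3 (0.0775 to 0.0964).

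**Figure D5:**
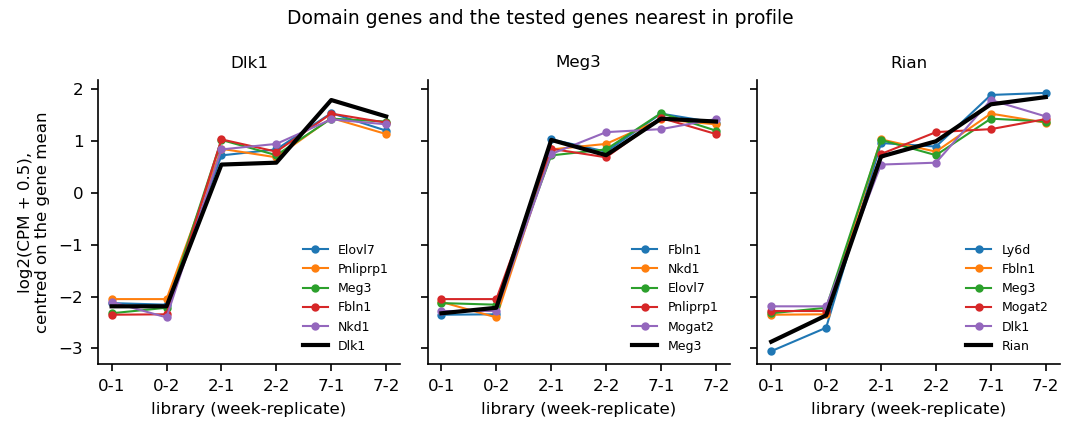
Centred log2(CPM + 0.5) of Dlk1, Meg3 and Rian (black) and of the 5 tested genes nearest to each in profile (coloured), over the 6 libraries; lines join libraries only to guide the eye, and replicates of a week have no order. All profiles are low at week 0 and highest on average at week 7, and the root mean square differences run from 0.0721 to 0.373.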

How the data were processed

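Gene expression was measured as poly-A RNA in 6 mouse liver libraries, 2 per week, grouped by the week in their titles. Per the labels' protocols, total RNA was made into libraries with the TruSeq V2 kit and sequenced from paired ends. Per the submitters' processing notes, Bowtie 0.12.2 and the mouse build mm8 were used, with no role given. The counting program is not given in the sources used here, nor are its gene models, and the build behind the table is unsure, so coordinates come only from RefSeq on GRCm38.p6. The deposited table holds expected counts per gene, not scaled to depth. All values were whole, and rounding changed 0 of them. Of 54446 gene identifiers, 54409 matched GENCODE M21, and the others held at most 0.00079% of a library's counts. In each library 68.3% to 69.6% of values between 4 and 43 were multiples of 4 or 1 more, against 50.0% if all were equally frequent. How the steps arose is not stated, so floors and intervals on read pairs rest on the assumed 4 counts per pair.

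The counts were tested with edgeR 4.0.16 under R 4.3.3. Its filterByExpr left 15368 genes, TMM scaled the libraries, and glmQLFit (robust) was run on all 6 of them with a term for each week, leaving 3 residual degrees of freedom at a common biological coefficient of variation of 0.209. Each pair of weeks was tested 2-sided with glmQLFTest, and genes with a Benjamini-Hochberg adjusted p under 0.05, over all genes tested, were called. On simulated data for week 7 against week 0 (14448 genes, 200 changed), the test recovered 93.4% of 4-fold and 44.9% of 2-fold changes, with 8 false calls among 137. The simulated counts had no steps of 4 and the same dispersion for every gene, so these figures need not hold for genes of low counts. Alternatives used median-of-ratios, upper-quartile or total-count scaling, other filters, DESeq2 1.42.0, limma 3.58.1 (voom), counts divided by 4, only the 4 libraries compared, a replicate block and each library left out. Tables and figures used Python 3.11.15, pandas 2.3.3, scipy 1.17.1 and matplotlib 3.10.9.

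The members, the gene lists and the tests were chosen with earlier results of these data known. The genes named are the 6 members, the flanking genes, up to 3 called genes in each direction per list by adjusted p for week 7 against week 0, and the 5 nearest profiles per member, 1 of which is not reported here. Genes outside this rule were named with their values seen. They include Dio3os, Gm3379 and Gm34667 in the domain. From the lists they include Nrarp, Dio1, Klf9, Hr, Epcam, Sox9, Cd24a, Igf2, Igf2bp1 and Lin28b. Sequences are from RefSeq tables on GRCm38.p6.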

Additional observations from a re-analysis of the deposited data

How the results depend on the processing

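Direction was checked for week 7 against week 0 in 42 genes named from the lists, and none reversed. Other genes, the members among them, were not checked, nor was the setting with counts divided by 4. For week 7 against week 0, 2123 genes were called, 1298 to 1856 with each library left out, 2705 by DESeq2, 1809 by limma voom, and 1807 without the female-typed week 2 libraries (chosen after seeing the data). Week 2 against week 0 gave 2862 calls and 1801 to 2752 with a library left out, and week 7 against week 2 gave 3040 and 1842 to 2961. Under total-count scaling 68.7% of the week 2 against week 0 calls were higher, against 52.7% with TMM. The balance of higher and lower calls turned for week 7 against week 2 under upper-quartile and total-count scaling (41.2% higher under each, against 50.8%) and without either week 7 library (48.2% and 47.3%), and for week 7 against week 0 under upper-quartile scaling (49.8%, against 54.9%). Scalings moved the median of all genes by at most 0.0911 (log2). Of the Notch pathway list, 4 genes were called at week 7 against week 0, 2 by limma voom and 0 to 3 with a library left out; the cause was not tested. The mean of Dlk1 at week 2 was 2.86 CPM, 2.96 by total counts only and 2.80 to 2.89 with a library left out. The other means of Dlk1, Meg3 and Rian stayed within their SD of the main value, and Dlk1 stayed at 0 at week 0. With 2 libraries a week, leaving either out moves that week's mean by less than the SD whatever the values, apart from rescaling. Those settings are therefore no check of the means. Same-numbered libraries did not deviate together (correlations -0.0061, -0.027 and -0.055), and a replicate block gave 1702, 2436 and 2620 calls for the 3 comparisons in the order above. Over 42 named genes, 48 values in the alternatives lost the call, those of Lfng, Maml1, Ms4a1, Ptprb, Hes1, Psen2, Hsp90aa1, Tet3, Fgb and Cps1. Depth limits Dio3, Mirg, Rtl1 and every week 0 level of the domain but Rian, and 2 libraries a week limit all tests.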
